A study of Mus musculus with 5 samples.

Results

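The proteasome genes of the mouse were followed in brain RNA that bound in vitro to the protein MA-Brent-1, an mRNA export factor of the REF/Aly family. Members were all genes with a probe set (a group of short probes read as 1 value) annotated with exactly 1 gene symbol that starts with Psma to Psmg and a digit. That gave 49 genes and 103 probe sets, of 18194 genes and 34945 probe sets with 1 symbol. By symbol, 8 genes belong to the alpha rings of the core particle, 11 to its beta rings, 6 to the ATPases and 14 to the non-ATPase group of the regulatory particle, and 8 are activators, an inhibitor or assembly chaperones. The pattern also took Psmc3ip and Psme3ip1, which are named for binding a subunit and are not subunits themselves.

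The study compared RNA eluted from deiminated MA-Brent-1 (2 arrays) and from the non-deiminated protein (2 arrays) with the starting brain RNA that went through no binding (1 array), called input here. Deimination turns arginine residues of a protein into citrulline. All 5 samples are labelled mouse brain. In each bound group 1 title names the protein as REFP2, and the titles of the others name it as MA-Brent-1. Strain, age, sex, the source of the protein and the enzyme used for deimination are not given in the sources used here. A single title mentions a biological repeat, so the spread between arrays may be technical, and every p-value below measures only that spread. Replicate numbers are only names, given in the order of the samples, and link no array of a group to an array of another.

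The proteasome is the large protease that degrades ubiquitin-tagged proteins in the cytosol and nucleus. Its barrel-shaped core particle is built of stacked rings, with alpha subunits that form the gate at both ends and beta subunits, some of them catalytic, inside. The regulatory particle caps the core, binds and removes ubiquitin through its non-ATPase subunits, and unfolds and threads the substrate with its ring of ATPases. In neurons the proteasome takes part in the turnover of synaptic proteins. In mammals, transcription factors that bind antioxidant response elements, ETS factors and nuclear respiratory factors are known regulators of subunit genes, and the subunits induced by interferon replace the catalytic ones in the immunoproteasome.

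Promoters are shown for 6 members, chosen after their values were seen: 4 of the genes with large positive differences from input (Psma2, Psma3, Psmc1 and Psmd12), an immunoproteasome gene with a signal below input on all bound arrays (Psmb9), and the gene with the lowest difference (Psmg4). The windows are from RefSeq on build GRCm38.p6 and run from 250 bases before to 50 after the annotated start, read 5′ to 3′ on the gene's strand. They lie at chr13:14612992-14613291 (Psma2, plus strand), chr12:70974373-70974672 (Psma3, plus strand), chr12:100109952-100110251 (Psmc1, plus strand), chr11:107479278-107479577 (Psmd12, plus strand), chr17:34187281-34187580 (Psmb9, minus strand) and chr13:34162714-34163013 (Psmg4, plus strand). Capitals mark a match on either strand to 1 of 3 motifs: TGANNNNGC, the core of the antioxidant response element; GCGCANGCG, the core bound by nuclear respiratory factor; and CCGGAAG, the core bound by ETS factors.
Psma2: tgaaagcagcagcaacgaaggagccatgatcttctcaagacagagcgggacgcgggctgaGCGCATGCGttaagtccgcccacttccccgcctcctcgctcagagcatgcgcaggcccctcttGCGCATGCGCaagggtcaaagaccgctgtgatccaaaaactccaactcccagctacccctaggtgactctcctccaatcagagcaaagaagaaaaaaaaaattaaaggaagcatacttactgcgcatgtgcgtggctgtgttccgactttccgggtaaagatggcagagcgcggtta
Psma3: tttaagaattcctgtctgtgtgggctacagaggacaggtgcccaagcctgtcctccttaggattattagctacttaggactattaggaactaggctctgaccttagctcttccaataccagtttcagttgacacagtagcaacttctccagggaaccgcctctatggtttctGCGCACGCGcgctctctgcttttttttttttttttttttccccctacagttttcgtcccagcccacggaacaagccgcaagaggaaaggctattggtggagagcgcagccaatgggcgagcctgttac
Psmc1: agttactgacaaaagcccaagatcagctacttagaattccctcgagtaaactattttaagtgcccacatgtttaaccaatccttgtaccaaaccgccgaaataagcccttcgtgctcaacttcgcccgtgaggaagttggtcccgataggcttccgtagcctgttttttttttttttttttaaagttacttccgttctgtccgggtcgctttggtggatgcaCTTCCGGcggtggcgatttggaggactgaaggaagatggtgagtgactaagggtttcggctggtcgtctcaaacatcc
Psmd12: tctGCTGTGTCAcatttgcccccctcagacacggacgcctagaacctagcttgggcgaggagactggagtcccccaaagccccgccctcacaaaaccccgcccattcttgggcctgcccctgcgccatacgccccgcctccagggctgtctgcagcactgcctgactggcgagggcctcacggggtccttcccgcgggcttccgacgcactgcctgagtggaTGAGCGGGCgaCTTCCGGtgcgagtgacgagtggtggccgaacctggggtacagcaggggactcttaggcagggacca
Psmb9: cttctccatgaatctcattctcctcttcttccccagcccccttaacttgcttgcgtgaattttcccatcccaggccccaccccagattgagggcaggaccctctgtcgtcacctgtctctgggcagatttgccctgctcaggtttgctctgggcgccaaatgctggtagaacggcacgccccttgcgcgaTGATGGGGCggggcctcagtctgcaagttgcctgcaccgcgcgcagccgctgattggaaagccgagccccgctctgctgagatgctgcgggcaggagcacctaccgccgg
Psmg4: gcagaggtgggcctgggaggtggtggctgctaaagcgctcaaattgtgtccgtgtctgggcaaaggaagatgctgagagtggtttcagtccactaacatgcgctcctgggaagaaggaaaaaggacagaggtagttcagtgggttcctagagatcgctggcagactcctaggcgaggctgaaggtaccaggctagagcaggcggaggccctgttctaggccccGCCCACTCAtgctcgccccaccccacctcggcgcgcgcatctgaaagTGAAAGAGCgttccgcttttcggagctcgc

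A window was found for 41 of the 49 members. CCGGAAG was present in 16 of them (39.0%), against 9.93% of the 27025 genes with a window and 17.97% of the genes that were also tested on the arrays. GCGCANGCG was present in 7 (17.1%), against 7.03% of all genes and 14.2% of tested genes, among them Psma2 and Psma3. Matches of this motif on opposite strands can overlap, as at the second place marked in Psma2. The antioxidant core TGANNNNGC, a short motif, was in 24 windows (58.5%), in 45.0% of all genes and in 47.6% of tested genes. For the longer form TGACNNNGC the shares of members and all genes were 14.6% and 13.99%, for the CCAAT box (CCAAT) 39.0% and 41.1%, and for the core bound by YY1 (GCCATNTT) 14.6% and 6.96%, each searched on both strands. Among tested genes they were 16.7% for TGACNNNGC, 42.4% for CCAAT and 9.27% for the YY1 core. These matches describe letters in a window and were not related to the array values.

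Signals are the authors' MAS5 intensities, analysed as log2(signal + 4.18). A probe set was kept when its mean over the 5 arrays reached the 40th percentile, and the kept probe set with the highest mean stood for its gene. In this way 47 members with 80 kept probe sets entered the tests among 13055 genes, and Psma8 and Psmb11 fell under the filter. Differences are on the log2 scale with the standard error from limma, and a gene is called higher or lower where limma's Benjamini-Hochberg adjusted p over all kept probe sets was under 0.05. Both comparisons with input share the same single array, whose spread was taken to equal that of the bound ones. The number of arrays limits the precision of every value.

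The arrays had been scaled to the same trimmed mean of 150, but their distributions differed. Over all probe sets other than controls the median signal was 29.8 to 41.4 on bound arrays and 102 on input. The hybridisation controls, added in fixed amounts, averaged 10.59 and 12.60 log2 on deiminated, 10.08 and 13.04 on non-deiminated and 17.04 on input arrays. Of the neuronal markers 6 of 6 were called higher in both comparisons with input, against 1 of 3 kept markers of astrocytes, 1 of 2 of oligodendrocytes and 1 of 3 of microglia and 29.5% (deiminated) and 29.2% (non-deiminated) of all genes tested. The neuronal markers had summed signals of 14720 and 16000 on deiminated, 13390 and 15590 on non-deiminated and 3072 on input arrays. Of 8 markers of liver, muscle, retina and testis, 5 were kept and 3 of these were called lower in both comparisons, with summed signals of 152.6 and 227.6 on deiminated, 193.6 and 258.4 on non-deiminated and 1677 on input arrays. In tissue RNA, the number of cells of a type and the amount of an RNA in each cell cannot be told apart. The labels give the input as initial RNA without binding, so these differences compare RNA with and without binding and are no count of cells. Detection calls were not used.

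Most proteasome genes had a higher signal in the bound RNA than in the input RNA. In RNA bound to deiminated protein 27 of the 47 tested members (57.4%) were called higher, against 29.5% of all genes tested, and 4 were called lower, against 22.4%. In RNA bound to non-deiminated protein 27 were called higher, against a background of 29.2%, and 2 lower, against 21.3%. The median difference of the members from input was 1.32 for deiminated and 1.48 for non-deiminated protein, where all genes tested had 0.11 (deiminated) and 0.12 (non-deiminated). All 4 bound arrays lay above the input array in 35 members, a pattern shared by 5774 of the 13055 genes (44.2%), and all 4 lay below it in 6 members and in 5228 genes. The median signal over the tested members was 593 and 532 on deiminated, 565 and 585 on non-deiminated and 174 on input arrays. Because the filter used the mean over all arrays, these counts describe the members that passed it. With no filter, 27 of 49 members were called higher with deiminated protein and 4 lower, against 20.8% and 28.0% of all genes.

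The size of the shift depended on how the arrays were put on a common scale. Median centring moved the median of all genes to 1.61 with deiminated and 1.54 with non-deiminated protein. The members then had 2.81 with deiminated and 2.90 with non-deiminated protein, above the median of all genes by 1.20 and 1.36. Centring adds the same constant to the difference of every gene, so it could not change this gap. With quantile normalisation the members stood above the median of all genes by 0.59 with deiminated and 0.70 with non-deiminated protein. Scaling to the hybridisation controls put all 47 members above input in both comparisons, with 0 called at an adjusted p under 0.05 by limma among the members or among all genes. At an unadjusted p under 0.05 it gave 30 members with deiminated and 31 with non-deiminated protein, against 32.8% (deiminated) and 33.8% (non-deiminated) of all genes, whose median this scaling moved to 4.78 with deiminated and 4.83 with non-deiminated protein.

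The members that were called also differed between alternatives. The share of all genes called higher changed too, from 29.5% with deiminated and 29.2% with non-deiminated protein. In this order it was 51.3% and 49.7% with median centring, 39.5% and 39.2% with quantile normalisation and 24.8% and 24.5% with no trend. It also fell with the mean of all kept probe sets. The share called lower went from 22.4% and 21.3% to 3.61% and 3.3% with median centring. Median centring added 1.495 to every member's difference with deiminated and 1.417 with non-deiminated protein. It called higher 9 further members with deiminated (Psma4, Psma6, Psmb4, Psmc6, Psmd2, Psmd3, Psmd5, Psmd11 and Psme3) and 11 with non-deiminated protein (Psma4, Psma6, Psmb2, Psmb4, Psmc6, Psmd3, Psmd5, Psmd11, Psme1, Psme3 and Psme4), and ended all calls lower. Quantile normalisation ended 5 calls higher with deiminated (Psma7, Psmb5, Psmc2, Psmd4 and Psmd6) and 5 with non-deiminated protein (Psmb5, Psmc2, Psmd2, Psmd4 and Psmd6). It called higher 5 further members with deiminated (Psma4, Psmd5, Psme1, Psme3 and Psmg1) and 7 with non-deiminated protein (Psma4, Psmb2, Psmd5, Psme1, Psme3, Psme4 and Psmg1). The mean of all kept probe sets ended 7 calls higher with deiminated (Psma1, Psma7, Psmc2, Psmd4, Psmd13, Psme4 and Psmg3) and 6 with non-deiminated protein (the same genes but Psme4), and called higher Psmb3 and Psmb4 in both. A fit with no trend of the variance on the signal ended 8 calls higher with deiminated (Psma7, Psmb1, Psmb7, Psmd4, Psmd13, Psme4, Psmg2 and Psmg3) and 4 with non-deiminated protein (Psmb7, Psmd2, Psmd4 and Psmg2).

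**Figure D1:**
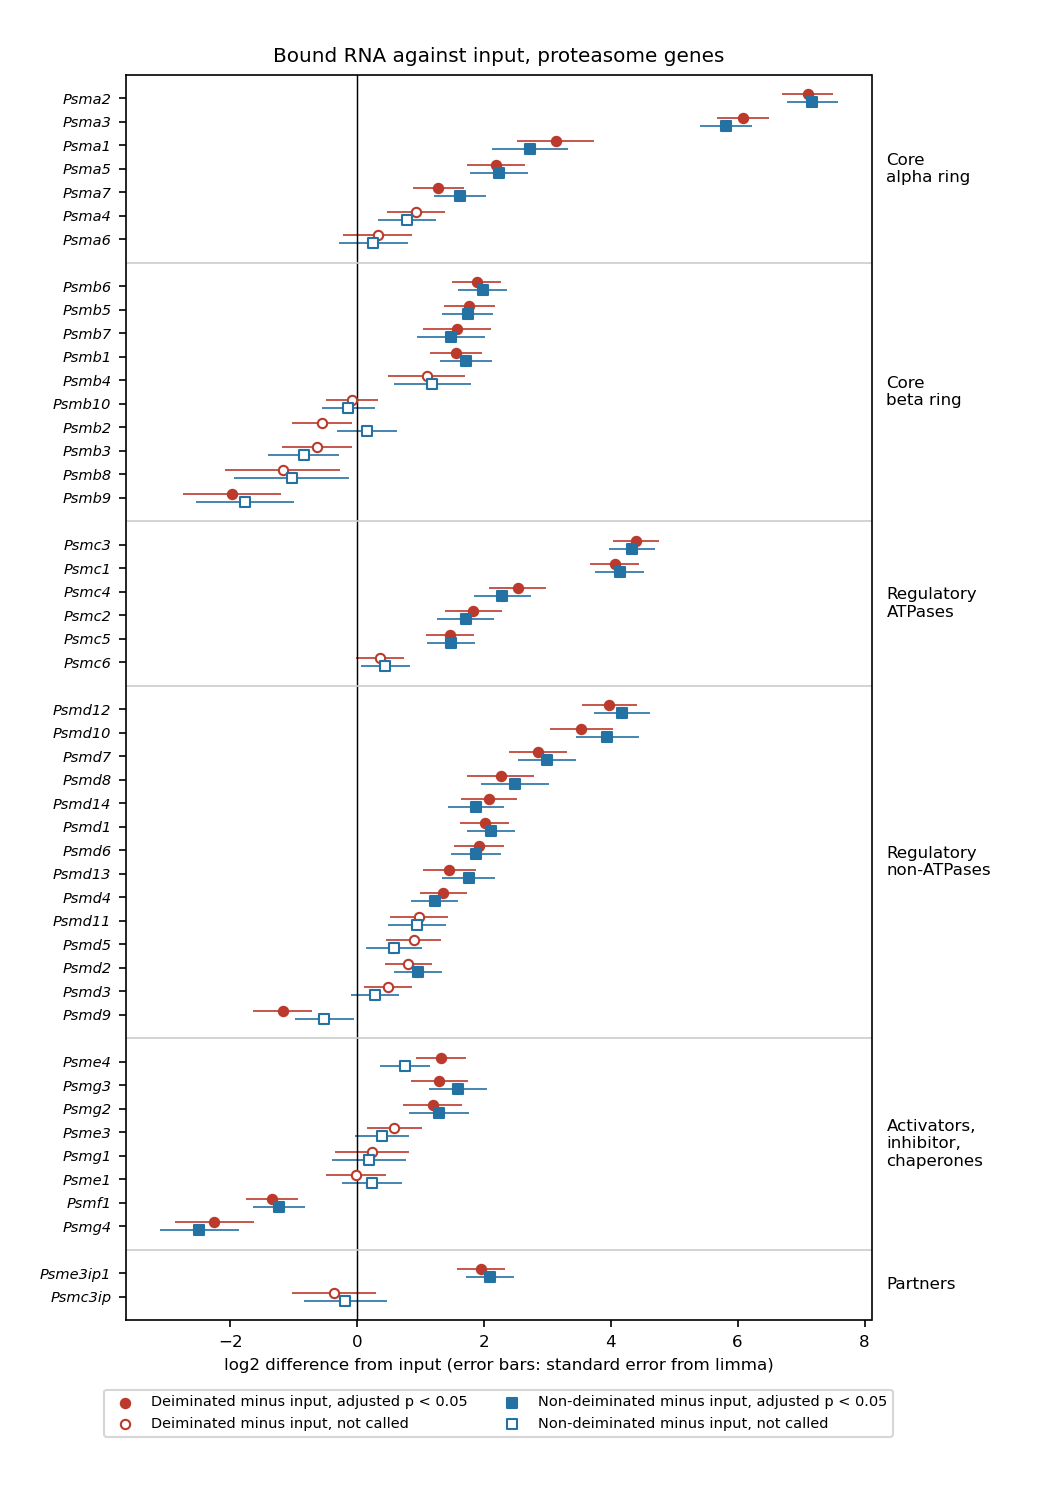
Differences of the 47 tested proteasome genes from input in log2 units (x axis), by class and sorted within it, for RNA bound to deiminated (red circles) and non-deiminated (blue squares) protein. Bars are standard errors from limma, filled symbols are called at an adjusted p under 0.05, and the points run from -2.25 for Psmg4 to 7.11 for Psma2 with deiminated protein.

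Alpha subunits were called higher in bound RNA in 5 of 7 tested genes in both comparisons and lower in none. Of all genes 29.5% were called higher with deiminated and 29.2% with non-deiminated protein. The median difference of the alpha subunits was 2.19 for deiminated and 2.24 for non-deiminated protein. Psma2 had signals of 2514 and 1593 on deiminated, 2337 and 1877 on non-deiminated and 10.4 on input arrays. All 4 bound arrays were far above the input array and the bound groups overlapped. The difference from input was 7.11 ± 0.40 with deiminated protein (limma adjusted p = 7.27e-07) and 7.17 ± 0.40 with non-deiminated protein (adjusted p = 8.13e-07), and it moved to 7.46 (deiminated) and 7.52 (non-deiminated) with a pseudocount of 1.05 and to 6.22 (deiminated) and 6.28 (non-deiminated) with 16.7. Psma3, another subunit of the outer ring, had 4865 and 5569 on deiminated, 5085 and 3733 on non-deiminated and 72.9 on input arrays. Its difference from input was 6.08 ± 0.41 with deiminated and 5.82 ± 0.41 with non-deiminated protein, and again the bound arrays overlapped far above input.

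Psma1 read 587 and 532 on deiminated, 820 and 215 on non-deiminated and 60.2 on input arrays. It rose by 3.13 ± 0.60 with deiminated (limma adjusted p = 0.00138) and 2.72 ± 0.60 with non-deiminated protein (adjusted p = 0.00333), and its non-deiminated arrays enclosed the deiminated ones. The mean over its kept probe sets was 0.64 with deiminated (adjusted p = 0.32) and 0.17 with non-deiminated protein (adjusted p = 0.802), so that neither call held there. Psma5 and Psma7 were also called higher in both comparisons, with differences of 2.19 and 1.28 for deiminated and 2.23 and 1.62 for non-deiminated protein.

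At the low end of the alpha ring, Psma4 had 333 and 337 on deiminated, 426 and 215 on non-deiminated and 174 on input arrays, a difference of 0.93 ± 0.46 with deiminated and 0.79 ± 0.46 with non-deiminated protein that was not called. It passed the threshold with deiminated protein when either non-deiminated array was left out (adjusted p = 0.0336 and 0.0268) and with non-deiminated protein without non-deiminated replicate 2 (1.28, adjusted p = 0.0114). It was also called higher in both comparisons under quantile normalisation, at 1.83 with deiminated and 1.68 with non-deiminated protein, and with median centring, at 2.43 with deiminated and 2.21 with non-deiminated protein. Psma6 had 7750 and 8769 on deiminated, 6249 and 9895 on non-deiminated and 6593 on input arrays, so that the input array lay among the bound ones. Its differences of 0.32 ± 0.54 with deiminated and 0.25 ± 0.54 with non-deiminated protein were not called, and the value with non-deiminated protein was -0.03 under quantile normalisation and -0.08 without non-deiminated replicate 2. With median centring it was called higher, at 1.82 with deiminated (limma adjusted p = 0.00211) and 1.67 with non-deiminated protein (adjusted p = 0.00359). Another probe set of Psma6 had 2072 and 1821 on deiminated, 2145 and 1660 on non-deiminated and 263 on input arrays and was called higher, at 2.87 ± 0.38 with deiminated and 2.83 ± 0.38 with non-deiminated protein. A further kept one of Psma6, at -0.98 with deiminated and -0.99 with non-deiminated protein, was not called. Psma8, which encodes the alpha subunit of the testis, was under the filter with 27.8 and 12.6 on deiminated, 8.996 and 12.4 on non-deiminated and 88.4 on input arrays.

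**Figure D2:**
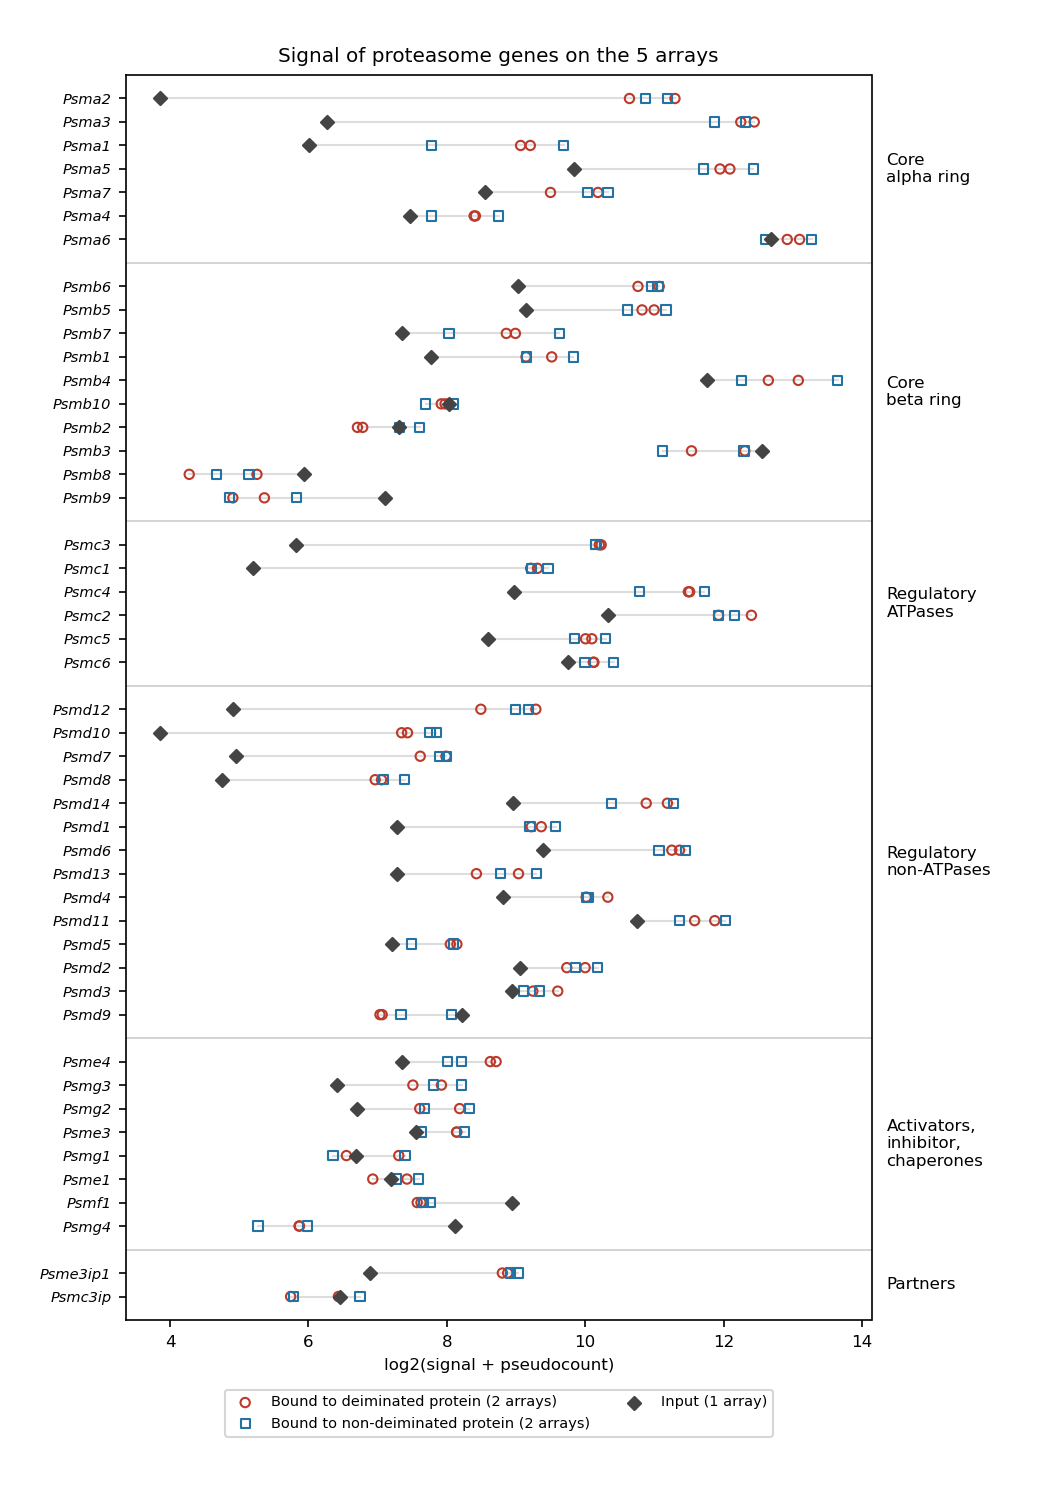
Signals of the 47 tested proteasome genes as log2(signal + pseudocount) (x axis) on the 2 deiminated arrays (red circles), the 2 non-deiminated arrays (blue squares) and the input array (black diamonds). The input array lies to the left of all 4 bound arrays in 35 genes and to the right of them in 6.

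In the beta ring 4 of 10 tested genes were called higher in both comparisons, against 29.5% (deiminated) and 29.2% (non-deiminated) of all genes. In this ring 1 gene was called lower with deiminated protein and 0 with non-deiminated protein, against 22.4% and 21.3%. The medians were 0.51 with deiminated and 0.67 with non-deiminated protein. The 3 constitutive catalytic subunits were among those called higher, while none of the 3 immunoproteasome subunits was. Scaling to the hybridisation controls ended all 3 calls, as it did every call, and further settings ended 2 of them. The difference between these sets of subunits was not tested.

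Psmb6, which carries the caspase-like activity, had 2147 and 1734 on deiminated, 2121 and 1994 on non-deiminated and 519 on input arrays. It rose by 1.89 ± 0.38 with deiminated (limma adjusted p = 0.00203) and by 1.98 ± 0.38 with non-deiminated protein (adjusted p = 0.00157). Psmb5, the chymotrypsin-like subunit, had 2039 and 1807 on deiminated, 2295 and 1557 on non-deiminated and 562 on input arrays, and rose by 1.77 ± 0.40 with deiminated and 1.74 ± 0.40 with non-deiminated protein. In both genes the bound groups overlapped well above input. Under quantile normalisation the values of Psmb5 were 0.77 with deiminated (limma adjusted p = 0.0731) and 0.805 with non-deiminated protein (adjusted p = 0.0621), and neither was called. Psmb7, the trypsin-like subunit, had 461 and 505 on deiminated, 787 and 258 on non-deiminated and 159 on input arrays. Its differences were 1.57 ± 0.54 with deiminated (limma adjusted p = 0.0274) and 1.48 ± 0.54 with non-deiminated protein (adjusted p = 0.0364), and the call with non-deiminated protein was lost without non-deiminated replicate 1 (0.68, adjusted p = 0.169). Both calls were lost with no trend (adjusted p = 0.109 with deiminated, 0.128 with non-deiminated protein).

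The interferon-induced subunits gave other values. Psmb9, which replaces Psmb6 in the immunoproteasome, had 25.9 and 37.0 on deiminated, 24.8 and 52.6 on non-deiminated and 134 on input arrays. All bound arrays were below input, with a difference of -1.97 ± 0.77 for deiminated (limma adjusted p = 0.0461) and -1.77 ± 0.77 for non-deiminated protein (adjusted p = 0.0698). The first call was lost when either deiminated array was left out (adjusted p = 0.186 and 0.0867), the second value was called without non-deiminated replicate 2 (-2.25, adjusted p = 0.0222), and the differences shrank to -0.48 with deiminated and -0.35 with non-deiminated protein under median centring and turned to 2.71 (deiminated) and 2.96 (non-deiminated) when scaled to the hybridisation controls.

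Psmb8, which replaces Psmb5, had 34.1 and 15.2 on deiminated, 31.1 and 21.4 on non-deiminated and 57.2 on input arrays. Its differences of -1.17 ± 0.91 with deiminated and -1.03 ± 0.91 with non-deiminated protein were not called, and their sign turned under quantile normalisation (0.15 with deiminated, 0.20 with non-deiminated protein). Psmb10, which replaces Psmb7, had 248 and 238 on deiminated, 268 and 203 on non-deiminated and 257 on input arrays, with differences of -0.08 ± 0.41 with deiminated and -0.14 ± 0.41 with non-deiminated protein whose sign also turned under quantile normalisation (0.33 with deiminated, 0.26 with non-deiminated protein). The input array lay within the range of the bound arrays for Psmb10 and above them for Psmb8. Of the 5 markers listed for interferon response and lymphoid cells, Irf1 and Ptprc were kept and Cd3e was under the filter. Their summed signal was 210.9 and 190.6 on deiminated, 229.9 and 305.9 on non-deiminated and 724 on input arrays. It was higher on the input array, as Psmb9 was, and its part in that difference was not tested.

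Psmb11, the catalytic subunit of the thymus, was under the filter with 1.04 and 0.95 on deiminated, 1.65 and 4.61 on non-deiminated and 174 on input arrays. The bound signals were near or under the pseudocount of 4.18, which would set the size of a log2 difference, and none is given. The summed markers of other tissues given above were also higher on the input array, and their part was not tested. Of the remaining beta genes, Psmb1 was called higher in both comparisons (1.56 with deiminated, 1.72 with non-deiminated protein), and Psmb2, Psmb3 and Psmb4 in neither. The probe set that stood for Psmb3 lay below input on all 4 bound arrays, at -0.63 with deiminated and -0.84 with non-deiminated protein. Under quantile normalisation it was called lower with non-deiminated protein. A second probe set was called higher in both comparisons for Psmb3 (3.01 with deiminated, 3.15 with non-deiminated protein) and for Psmb4 (2.27 and 2.44).

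Of the 20 tested genes assigned by symbol to the regulatory particle, 14 were called higher and 1 lower with deiminated protein. With non-deiminated protein the counts were 15 and 0. Of all genes 29.5% and 22.4% were called higher and lower with deiminated, and 29.2% and 21.3% with non-deiminated protein. The gene called lower was Psmd9, and Psmd10 was among those called higher, both assembly chaperones described below. The ATPases were higher in 5 of 6 genes in both comparisons, with medians of 2.19 for deiminated and 1.998 for non-deiminated protein. Psmc3 had 1198 and 1176 on deiminated, 1139 and 1132 on non-deiminated and 52.4 on input arrays. The bound arrays lay close together, and the rise over input was 4.40 ± 0.36 with deiminated (limma adjusted p = 2.72e-06) and 4.33 ± 0.36 with non-deiminated protein (adjusted p = 3.04e-06). Psmc1 had 631 and 589 on deiminated, 702 and 594 on non-deiminated and 32.6 on input arrays, and rose by 4.06 ± 0.38 with deiminated and 4.14 ± 0.38 with non-deiminated protein. Psmc4 had 2913 and 2876 on deiminated, 1757 and 3372 on non-deiminated and 496 on input arrays, and rose by 2.54 ± 0.45 with deiminated and 2.29 ± 0.45 with non-deiminated protein. Its non-deiminated arrays enclosed the deiminated ones, and all 4 stood above input.

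Smaller values were found for the ATPases Psmc5 and Psmc6. Psmc5 had 1091 and 1024 on deiminated, 1255 and 919 on non-deiminated and 382 on input arrays, and still rose by 1.46 ± 0.38 with deiminated (limma adjusted p = 0.00761) and 1.48 ± 0.38 with non-deiminated protein (adjusted p = 0.00744). Psmc6 had 1114 and 1107 on deiminated, 1018 and 1359 on non-deiminated and 862 on input arrays. Its differences of 0.36 ± 0.38 with deiminated and 0.45 ± 0.38 with non-deiminated protein were not called. They were -0.80 (deiminated) and -0.71 (non-deiminated) under quantile normalisation, and with median centring they were called higher, at 1.86 with deiminated (limma adjusted p = 0.00722) and 1.86 with non-deiminated protein (adjusted p = 0.00738). Another probe set of Psmc6 was called higher, at 1.74 ± 0.58 with deiminated and 1.60 ± 0.58 with non-deiminated protein. A further kept one, at -0.89 with deiminated and -0.13 with non-deiminated protein, was not called.

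Of the 14 genes of the non-ATPase group, 9 were called higher and 1 lower with deiminated protein, against 29.5% and 22.4% of all genes. With non-deiminated protein 10 were called higher and 0 lower, against 29.2% and 21.3%. The medians were 1.69 with deiminated and 1.81 with non-deiminated protein. Psmd12, a subunit of the lid, had 621 and 356 on deiminated, 507 and 575 on non-deiminated and 25.9 on input arrays. It rose by 3.98 ± 0.44 with deiminated (limma adjusted p = 2.24e-05) and by 4.18 ± 0.44 with non-deiminated protein (adjusted p = 1.58e-05). Psmd7, the partner of the lid's deubiquitinase, had 250 and 192 on deiminated, 251 and 234 on non-deiminated and 26.8 on input arrays, and rose by 2.85 ± 0.46 with deiminated and 2.99 ± 0.46 with non-deiminated protein. In both genes the bound groups overlapped and lay well above input.

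The deubiquitinase itself, Psmd14, had 2330 and 1884 on deiminated, 2480 and 1331 on non-deiminated and 494 on input arrays, a rise of 2.08 ± 0.44 with deiminated (limma adjusted p = 0.00255) and 1.87 ± 0.44 with non-deiminated protein (adjusted p = 0.00478). The ubiquitin receptor Psmd4 had 1281 and 1031 on deiminated, 1051 and 1037 on non-deiminated and 445 on input arrays, with differences of 1.36 ± 0.37 with deiminated (limma adjusted p = 0.00971) and 1.22 ± 0.37 with non-deiminated protein (adjusted p = 0.0169). These calls were lost under quantile normalisation (0.61 with deiminated, 0.51 with non-deiminated protein) and depended on the probe set, since the mean over the kept probe sets of Psmd4 gave -0.19 with deiminated and -0.25 with non-deiminated protein, and the call with deiminated protein was lost without deiminated replicate 1 (1.20, adjusted p = 0.0904). Psmd3 had 602 and 774 on deiminated, 549 and 643 on non-deiminated and 487 on input arrays. Its differences of 0.48 ± 0.38 with deiminated and 0.29 ± 0.38 with non-deiminated protein were not called. They were -0.28 (deiminated) and -0.44 (non-deiminated) under quantile normalisation, and with median centring they were called higher, at 1.98 with deiminated (limma adjusted p = 0.00632) and 1.70 with non-deiminated protein (adjusted p = 0.0143).

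Psmd10 and Psmd9 are chaperones that help to assemble the base of the regulatory particle and are not part of the finished complex. Psmd10 had 169 and 159 on deiminated, 212 and 226 on non-deiminated and 10.3 on input arrays, and rose by 3.54 ± 0.50 with deiminated (limma adjusted p = 0.000159) and 3.95 ± 0.50 with non-deiminated protein (adjusted p = 7.23e-05). Psmd9 had 130 and 127 on deiminated, 157 and 265 on non-deiminated and 295 on input arrays. It fell by 1.17 ± 0.46 with deiminated protein (limma adjusted p = 0.0497), a value that turned to 0.32 with median centring, and its difference with non-deiminated protein, -0.52 ± 0.46, was not called and turned to 0.90. The call was lost when either deiminated array was left out (-1.19 and -1.16). Another probe set of Psmd9 was called lower in both comparisons, at -2.17 ± 0.55 with deiminated and -2.23 ± 0.55 with non-deiminated protein. A further one had -2.06 ± 0.85 with deiminated protein, not called, and -2.19 ± 0.85 with non-deiminated protein, called lower. The mean over its kept probe sets was called lower in both comparisons.

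Among the activators, the inhibitor and the core's assembly chaperones, 3 of 8 were called higher and 2 lower with deiminated protein. Of all genes 29.5% were called higher and 22.4% lower there. With non-deiminated protein 2 were called higher and 2 lower, against 29.2% and 21.3%. The counts were near these shares, and the medians were 0.41 with deiminated and 0.32 with non-deiminated protein. Psme4, a large activator of the nucleus, had 392 and 416 on deiminated, 292 and 254 on non-deiminated and 160 on input arrays. It was called with deiminated (1.32 ± 0.39, limma adjusted p = 0.0151) and not with non-deiminated protein (0.76 ± 0.39, adjusted p = 0.123), and the difference between these was not called either, as given below. With non-deiminated protein it was called under quantile normalisation (1.76, limma adjusted p = 0.00208) and with median centring (2.17, adjusted p = 0.00648). Its call with deiminated protein was lost when either deiminated array was left out (adjusted p = 0.0666 and 0.0772), and the mean over its kept probe sets was -0.21 with deiminated and -0.48 with non-deiminated protein.

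Psme1, a subunit of the activator induced by interferon, had 168 and 118 on deiminated, 189 and 150 on non-deiminated and 142 on input arrays. The input array lay among the bound ones, and the differences of -0.02 ± 0.47 with deiminated and 0.24 ± 0.47 with non-deiminated protein were not called, the first turning to 1.23 under quantile normalisation and to 0.23 without deiminated replicate 2. Under quantile normalisation it was called higher in both comparisons (adjusted p = 0.0335 with deiminated, 0.0174 with non-deiminated protein by limma). Psme3, the nuclear activator, had 279 and 278 on deiminated, 302 and 195 on non-deiminated and 184 on input arrays. It was above input on all bound arrays without being called, at 0.59 ± 0.43 with deiminated and 0.39 ± 0.43 with non-deiminated protein, and the mean over its kept probe sets with deiminated protein was -0.18. It was called higher in both comparisons under quantile normalisation, at 1.48 with deiminated and 1.28 with non-deiminated protein, and with median centring, at 2.09 with deiminated and 1.81 with non-deiminated protein.

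Psmf1, which inhibits the core in vitro, had 186 and 194 on deiminated, 198 and 213 on non-deiminated and 488 on input arrays. It fell by 1.34 ± 0.41 with deiminated (limma adjusted p = 0.0158) and 1.23 ± 0.41 with non-deiminated protein (adjusted p = 0.0241), although both values turned positive with median centring (0.15 with deiminated, 0.19 with non-deiminated protein). The call with deiminated protein was lost when either deiminated array was left out (adjusted p = 0.0789 and 0.059), and the mean over its kept probe sets with deiminated protein was 0.14. The call with non-deiminated protein was lost with that mean (-0.38), with no trend (adjusted p = 0.0687) and with the protein name as a covariate (adjusted p = 0.0518).

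Psmg1 to Psmg4 encode the chaperones that assemble the alpha ring, Psmg1 with Psmg2 and Psmg3 with Psmg4. Psmg2 and Psmg3 were called higher in both comparisons and Psmg4 lower, and differences within a pair were not tested. Psmg1 had 154 and 89.5 on deiminated, 165 and 77.9 on non-deiminated and 99.3 on input arrays, with differences of 0.23 ± 0.59 with deiminated and 0.18 ± 0.59 with non-deiminated protein that were not called and changed sign without replicate 1 of the bound group (-0.14 for deiminated, -0.33 for non-deiminated protein). Under quantile normalisation Psmg1 was called higher, at 1.55 with deiminated (limma adjusted p = 0.0381) and 1.45 with non-deiminated protein (adjusted p = 0.049). Psmg2 had 287 and 191 on deiminated, 317 and 200 on non-deiminated and 100.4 on input arrays, and was called higher at 1.19 ± 0.47 with deiminated (limma adjusted p = 0.0481) and 1.29 ± 0.47 with non-deiminated protein (adjusted p = 0.0356), calls that were lost without replicate 1 of the bound group (adjusted p = 0.271 with deiminated, 0.0984 with non-deiminated protein).

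Psmg3 had 239 and 178 on deiminated, 293 and 219 on non-deiminated and 81.4 on input arrays. It was called higher at 1.30 ± 0.45 with deiminated (limma adjusted p = 0.029) and 1.59 ± 0.45 with non-deiminated protein (adjusted p = 0.0121), but the first call was lost when either deiminated array was left out (adjusted p = 0.185 and 0.0503) and the mean over its kept probe sets was -0.80 with deiminated and -0.70 with non-deiminated protein. Psmg4 had 54.4 and 54.1 on deiminated, 59.1 and 34.4 on non-deiminated and 273 on input arrays. It fell by 2.25 ± 0.62 with deiminated (limma adjusted p = 0.0102) and 2.49 ± 0.62 with non-deiminated protein (adjusted p = 0.00649). With median centring it was not called, at -0.75 with deiminated (adjusted p = 0.332) and -1.07 with non-deiminated protein (adjusted p = 0.176), and it turned to 2.78 with deiminated and 2.59 with non-deiminated protein when scaled to the hybridisation controls. Leaving that scaling aside, Psmg4 was negative in all 13 alternatives run for it in both comparisons, and Psmb9 with deiminated protein in all 12 in which it was tested.

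Of the genes named for a partner, Psme3ip1 had 467 and 443 on deiminated, 482 and 519 on non-deiminated and 114 on input arrays, and rose by 1.95 ± 0.38 with deiminated (limma adjusted p = 0.00148) and 2.09 ± 0.38 with non-deiminated protein (adjusted p = 0.000996). Psmc3ip, which acts in meiotic recombination, was not called at -0.36 ± 0.66 with deiminated and -0.19 ± 0.66 with non-deiminated protein. Without both of them the counts were 26 higher of 45 in each comparison.

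Several of the large differences came from genes with little signal on the input array. Psma2, Psmc1, Psmd10, Psmd12, Psmd7 and Psmd8 had input signals of 10.3 to 32.6, under the median of all values on the 5 arrays (41.8), and differences of 2.26 to 7.11 with deiminated protein. The input array's own median was 102 over probe sets other than controls. Psma3, Psmc3 and Psma1, with input signals of 72.9, 52.4 and 60.2 and differences of 6.08, 4.40 and 3.13, also lay under it. So did Psmb8, with 57.2 and a difference of -1.17, and some further members. The input signal is itself a term of the difference, so these values are a description. Across the 13 alternatives other than scaling to the hybridisation controls, 15 of the 27 genes called higher with deiminated protein were called in every one. They were Psma2, Psma3, Psma5, Psmb6, Psmc1, Psmc3, Psmc4, Psmc5, Psmd1, Psmd7, Psmd8, Psmd10, Psmd12, Psmd14 and Psme3ip1. With non-deiminated protein Psmb1 joined them, which made 16 of 27. Among these 16 only Psma5, Psmb1 and Psmc4 had several kept probe sets. For the others the mean of all kept probe sets could not change the difference, so that alternative was no check on them. Median centring raised every difference, and the filters and omission of an array of the other bound group left the differences as they were. All alternatives used the same input array. The share of all genes called in every alternative is not given here.

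Different probe sets of a gene disagreed in sign in many members. Of the 80 kept probe sets, 38 were called higher and 11 lower with deiminated protein, against 24.9% and 26.6% of all kept probe sets, and 38 and 10 with non-deiminated protein, against 24.7% and 25.7%. Among the 19 members with at least 2 kept probe sets, all probe sets had the same sign in 5 (26.3%, against 40.5% of all such genes) with deiminated and in 6 (31.6%, against 41.1%) with non-deiminated protein. In Psma1, Psmd11, Psmd4, Psme4 and Psmg3 some probe sets were called higher and others lower in both comparisons, which is 26.3% of the 19 members against 19.4% of all such genes with deiminated and 18.6% with non-deiminated protein.

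For Psmd11, a subunit of the lid, 2 of 5 kept probe sets were called higher and 2 lower with deiminated protein, from -2.96 to 3.49. For Psme4 the 6 kept probe sets ran from -4.26 to 2.93, and for Psmg3 the values were -2.90 and 1.30. In Psma1 the second probe set had 46.7 and 59.0 on deiminated, 46.0 and 26.5 on non-deiminated and 201 on input arrays, a difference of -1.86 ± 0.67 where the brighter probe set rose. In Psmd4 the second probe set had 233 and 194 on deiminated, 279 and 164 on non-deiminated and 718 on input arrays, with -1.73 ± 0.44. Psmd6 showed agreement in sign with unequal size, since its second probe set had 761 and 394 on deiminated, 880 and 258 on non-deiminated and 5.52 on input arrays and gave 5.83 ± 0.63, while the one standing for the gene gave 1.92 ± 0.40. The ratio of 3′ to 5′ signal of the actin control was 51.7 and 45.2 on deiminated, 29.8 and 55.6 on non-deiminated and 234 on input arrays, and that of Gapdh was 21.9 and 31.9 on deiminated, 31.7 and 17.4 on non-deiminated and 2.71 on input arrays. The part of these ratios in the disagreement was not tested.

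**Figure D3:**
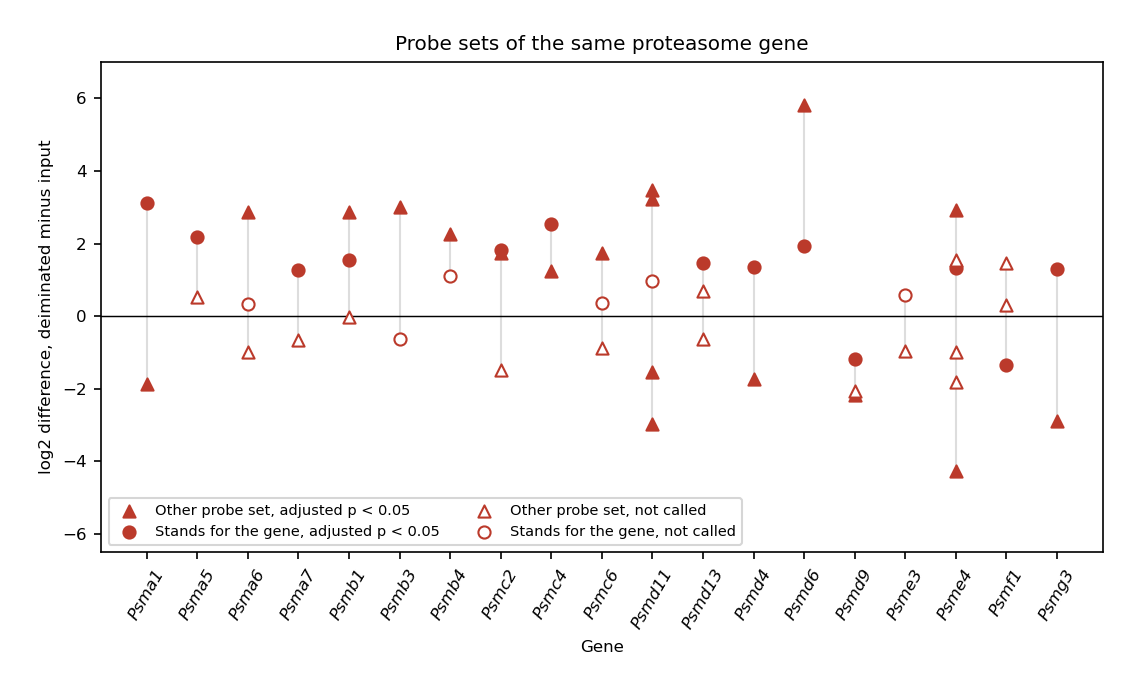
Differences from input with deiminated protein in log2 units (y axis) for every kept probe set of the 19 proteasome genes that had at least 2. Circles stand for the gene in the tests, triangles are its other probe sets, and filled symbols are called; in 14 of the 19 genes the probe sets lie on both sides of 0.

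Between RNA bound to deiminated and to non-deiminated protein no proteasome gene was called. Of the 47 tested members 0 passed in either direction by limma, as did 0.0% of the 13055 genes, and 0 members had an unadjusted p under 0.05, against 132 genes (1.01%). The median difference was -0.07, where all genes had 0.00, and it was 0.03 without deiminated replicate 2. By class the medians were 0.07 for alpha subunits, -0.09 for beta subunits, 0.02 for ATPases, -0.12 for non-ATPases and -0.03 for activators, the inhibitor and chaperones.

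The size of the difference between the group means had a median of 0.14 over the members. Between single arrays of the same group the median size was 0.18 for deiminated and 0.45 for non-deiminated protein. Between single arrays of opposite groups it was 0.22 for the pair with lower and 0.29 for the pair with higher hybridisation controls. In 44 members the difference was under 0.5 in size, and in 26 (55.3%) the 95% interval lay within 2-fold in both directions, which held for 32.9% of all genes. For the other members the interval reached past 2-fold. The groups did not overlap in 8 of the 47 members, against 23.7% of all genes. Deiminated was higher in Psmc3 and Psme4 and lower in Psmb2, Psmd8, Psmd9, Psmd10, Psmf1 and Psme3ip1.

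The largest positive moderated t belonged to Psme4, at 0.56 ± 0.32 with an interval from -0.13 to 1.26. Psmd5, a chaperone of the base, had 261 and 279 on deiminated, 269 and 176 on non-deiminated and 144 on input arrays, with a difference of 0.31 ± 0.36 between the bound groups (interval -0.47 to 1.08), which was 0.61 without non-deiminated replicate 1 and 0.0045 without non-deiminated replicate 2. Psma1 had 0.41 ± 0.49 (interval -0.65 to 1.47), which rested on its lowest array, since it was -0.55 without non-deiminated replicate 2.

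On the negative side, the beta subunit Psmb2 had 100.5 and 106 on deiminated, 156 and 191 on non-deiminated and 154 on input arrays, with -0.72 ± 0.38 (interval -1.55 to 0.11). The deiminated arrays lay below the non-deiminated arrays and below input. Psmd9 had -0.65 ± 0.38 (interval -1.47 to 0.17), which was -1.02 without non-deiminated replicate 1 and -0.29 without non-deiminated replicate 2. Psma7, an alpha subunit, had 1160 and 720 on deiminated, 1283 and 1046 on non-deiminated and 373 on input arrays, with -0.34 ± 0.33 (interval -1.06 to 0.37), and 0.00 without deiminated replicate 2. Each of these 6 genes had a limma adjusted p of 0.9999.

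The hybridisation controls divided each bound group, with 1 array at 10.08 to 10.59 and the other at 12.60 to 13.04. Between the arrays with higher and lower controls the members had a median difference of -0.17, with 17 positive and 30 negative, where all genes had 0.04. None of the 47 was called, where 32 of all genes were, and 6 (12.8%) had an unadjusted p under 0.05 by limma, against 13.3% of all genes. The lowest value was -1.03 for Psma1. Deiminated minus non-deiminated had a median of -0.05 in the pair with lower controls and -0.13 in the pair with higher controls, and the sign was opposite in the 2 pairs in 30 of 47 members (63.8%), against 53.2% of all genes. Psmc3, at 0.07 and 0.05, and Psmg3, at -0.29 in both, were among the genes whose pairs lay closest together.

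**Figure D4:**
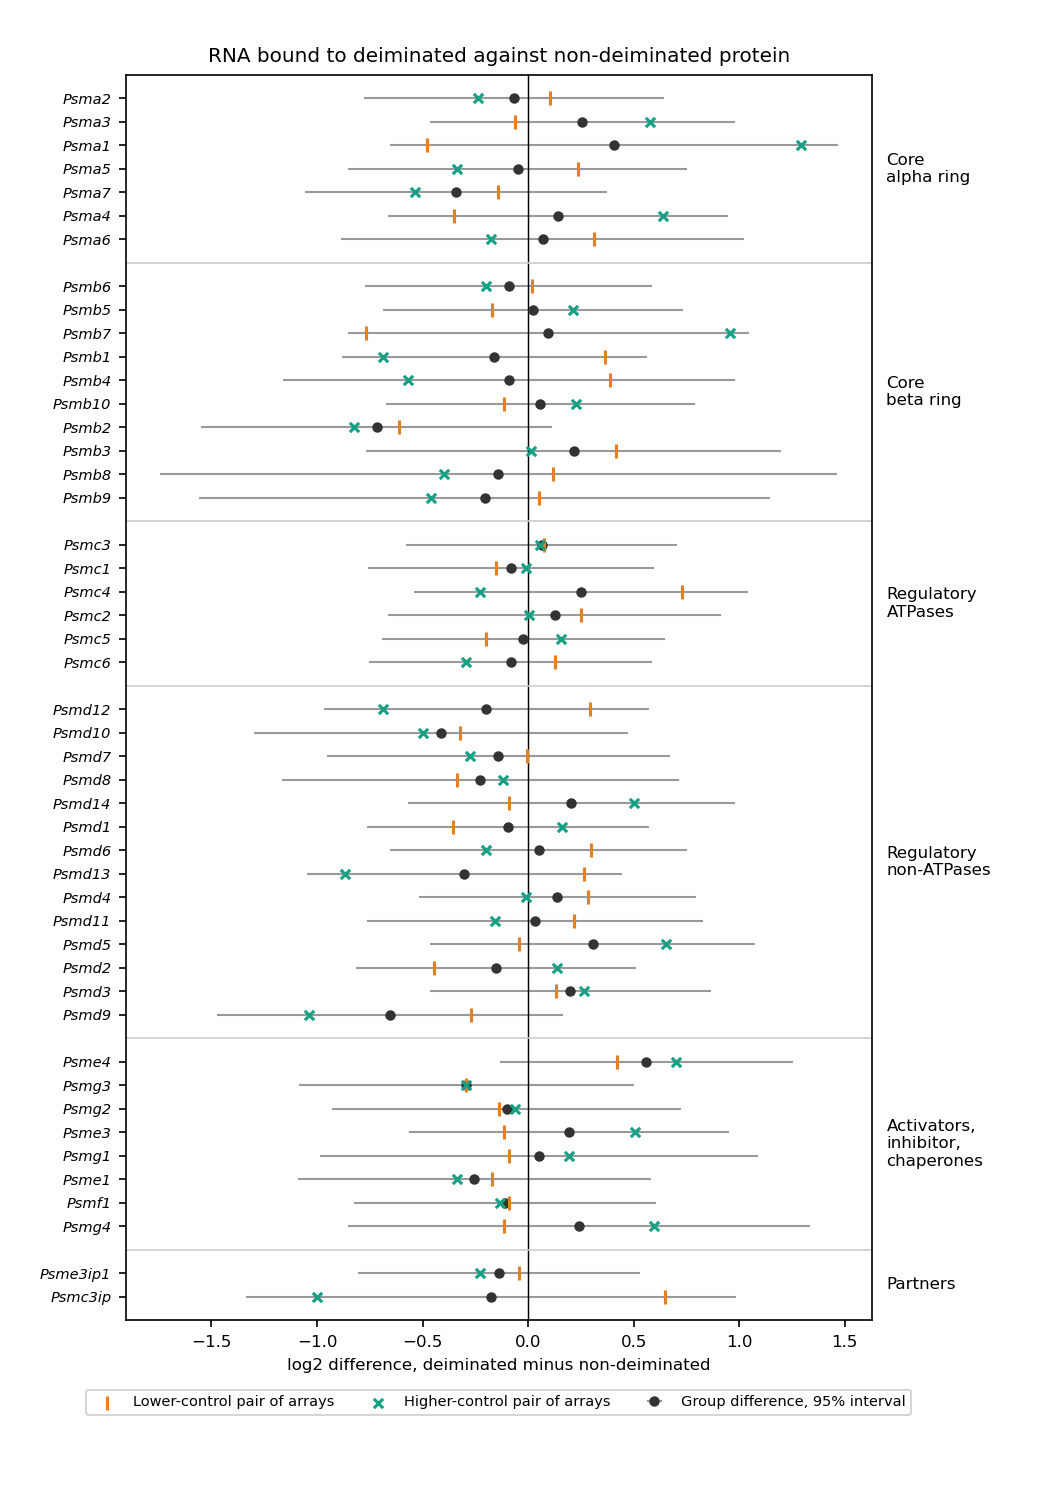
Deiminated minus non-deiminated in log2 units (x axis) for the 47 tested proteasome genes, as the group difference with its 95% interval (black) and within the pair of arrays with lower (orange) and higher (green) hybridisation controls. Every interval spans 0, and the group differences run from -0.72 for Psmb2 to 0.56 for Psme4.

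Other genes of the ubiquitin-proteasome pathway were counted from a list of 30, of which 20 were tested. 14 were called higher and 2 lower in each comparison with input, against 29.5% and 22.4% of all genes with deiminated and 29.2% and 21.3% with non-deiminated protein, with medians of 1.82 for deiminated and 1.87 for non-deiminated protein, and 0 were called between the bound groups. Ubqln1, a shuttle that carries ubiquitinated proteins to the proteasome, had 1309 and 1358 on deiminated, 1951 and 1073 on non-deiminated and 10.5 on input arrays, a rise of 6.51 ± 0.42 with deiminated (limma adjusted p = 8.92e-07) and 6.63 ± 0.42 with non-deiminated protein (adjusted p = 8.13e-07). Usp5, which takes apart free ubiquitin chains, rose by 4.03 ± 0.46 with deiminated and 3.78 ± 0.46 with non-deiminated protein. At the other end Uba6, an enzyme that activates ubiquitin, had 83.3 and 76.2 on deiminated, 162 and 45.2 on non-deiminated and 331 on input arrays and was lower by limma, at -2.00 ± 0.66 with deiminated (adjusted p = 0.0229) and -1.89 ± 0.66 with non-deiminated protein (adjusted p = 0.03).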

How the data were processed

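Each of the 5 samples was hybridised to an Affymetrix mouse array with 45101 probe sets. The deposited table holds the authors' signal intensity for each probe set on a linear scale, made with MAS5 per the submitters' processing notes (version not given in the sources used here), with every array at the same trimmed mean. Groups came from the sample labels. Of 45037 non-control probe sets, 34945 had 1 gene symbol in the platform annotation, 932 had several and 9160 had none listed. Values were analysed as log2 after adding a pseudocount of 4.18, which is 1/10 of the median over all arrays, and probe sets whose mean reached the 40th percentile were kept (27022). limma 3.58.1 in R 4.3.3 (lmFit, eBayes with a trend) fitted the 3 group means with 2 residual and 10.9 prior degrees of freedom, with Benjamini-Hochberg adjustment over all kept probe sets. The code was tested on simulated data.

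Named in full are, in each class, the 3 largest and 2 smallest differences of deiminated from input, the catalytic, immunoproteasome, thymus and testis subunits, Psmd4, Psmd14, all activators, the inhibitor and chaperones, the 3 largest moderated t per direction between the bound groups, and genes with probe sets called in opposite directions. Other values named (Psma5, Psmb1, Psmb3, Psmd6, Psmc3ip and members listed with a count) were chosen after they were seen. So were the further probe sets given for Psma6, Psmb3, Psmb4, Psmc6 and Psmd9. Members and lists were chosen with earlier results of these data known. Alternatives covered the pseudocount, the filter, the scaling, the trend, the protein name as a covariate, the mean of all probe sets, a fit of only the 4 bound arrays, and omission of each bound array in turn.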

Additional observations from a re-analysis of the deposited data

How the results depend on the processing

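No paired analysis was possible because the labels give the groups no shared replicate numbers. Of all genes 22.4% were called lower with deiminated protein. The share was 15.9% to 21.2% with the smaller pseudocount, the stricter filter, quantile normalisation, no trend or the protein name as a covariate. It was 3.61% with median centring and 0.0% with scaling to the hybridisation controls. With non-deiminated protein it was 21.3%, and 3.3% with median centring, 0.0% with control scaling and 18.6% with the protein name. Members called lower with deiminated protein (4) were 2 with the smaller pseudocount, the stricter filter, quantile normalisation, no trend or the protein name as a covariate, 0 with median centring or scaling to the hybridisation controls, and 1 to 4 when a bound array was left out. With non-deiminated protein (2) they were 0 with median centring or control scaling, 1 with the protein name, 2 to 4 with an array left out and 4 with the control level as a covariate, an alternative chosen after seeing the data. Members called higher (27 and 27) were 0 and 0 with control scaling, 20 to 32 with deiminated and 26 to 28 with non-deiminated protein when an array was left out, and 19 to 36 and 23 to 38 in the other alternatives, against 0.0% to 51.3% and 0.0% to 49.7% of all genes. The medians were 2.81 and 2.90 with median centring, 6.28 and 6.37 with control scaling and 0.89 and 0.96 with the mean of all kept probe sets. With non-deiminated protein the median was 1.29 with no filter, 1.28 with quantile normalisation and 1.28 to 1.498 with an array left out.

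Values that changed sign are given as pairs, with deiminated and with non-deiminated protein. Under quantile normalisation Psmb10 had 0.33 and 0.26, Psmb8 0.15 and 0.20, Psmc6 -0.80 and -0.71 and Psmd3 -0.28 and -0.44, Psme1 had 1.23 with deiminated and Psma6 -0.0308 with non-deiminated protein. With median centring Psmb10 had 1.42 and 1.28, Psmb8 0.32 and 0.39, Psmd9 0.32 and 0.90 and Psmf1 0.15 and 0.19, and Psme1 had 1.48 with deiminated protein. With control scaling Psmb10 had 4.96 and 4.94, Psmb8 2.98 and 3.18, Psmb9 2.71 and 2.96, Psmd9 3.90 and 4.59, Psmf1 3.87 and 4.01 and Psmg4 2.78 and 2.59, and Psme1 had 4.77 with deiminated protein. With the mean of all kept probe sets Psmd4 had -0.19 and -0.25, Psme4 -0.21 and -0.48 and Psmg3 -0.80 and -0.70, and with deiminated protein Psme3 had -0.18 and Psmf1 0.14. Over the bound arrays left out, Psme1 ranged from -0.26 to 0.23 and Psmg1 from -0.14 to 0.61 with deiminated protein. With non-deiminated protein Psma6 ranged from -0.0773 to 0.585, Psmb10 from -0.334 to 0.0605 and Psmg1 from -0.335 to 0.705. Between the bound groups Psma1 ranged from -0.55 to 1.36 and Psma7 from -0.684 to 0.00204. The cause of these changes was not tested. Between the bound groups 0 members were called in every alternative run, against at most 0.0993% of all genes higher and 0.0153% lower (without non-deiminated replicate 1). The stand-in weighted equally between bound and input arrays and the omission of both partner genes, both also chosen after seeing the data, changed no count by over 1.5 times. Signal near background limits genes with an input signal of the order of the pseudocount.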
